A study of Mus musculus with 217 samples.

Results

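Leukocyte adhesion molecules are the surface proteins with which endothelium catches leukocytes from the blood. The 10 genes described here were chosen by name, out of 52550 gene IDs counted. They are the selectins Sele and Selp, the sialomucin-type molecules Selplg, Cd34 and Podxl, and the immunoglobulin family members Icam1, Icam2, Vcam1, Alcam and Madcam1. Madcam1 is also mucin-like in part. They were measured as ribosome-bound mRNA of endothelial cells (ECs) in the brain, lung and heart of adult C57BL/6J mice, before and at 5 times after bacterial lipopolysaccharide (LPS). Every mouse, controls included, was Cdh5CreERT2/+; Rpl22HA/+, so that Cre under the Cdh5 (VE-cadherin) promoter switched on an HA-tagged ribosomal protein in ECs, and received 5 mg tamoxifen by gavage 4 times at 4 to 6 weeks of age. The 0 hr groups are the controls of the labels, which were injected with PBS per the study's methods. The other groups were killed 6, 24, 48, 72 or 168 hr after an intraperitoneal dose of 10 mg/kg LPS. Polysomes were pulled down with an antibody to HA from whole organs perfused once with PBS. In mm10 the genes lie at chr1:164048234-164057677 (Sele), chr1:164115264-164150026 (Selp), chr5:113818536-113832644 (Selplg), chr1:194938819-194961279 (Cd34), chr6:31519488-31563981 (Podxl), chr10:79664559-79668537 (Madcam1), chr9:21015985-21028817 (Icam1), chr11:106377656-106388075 (Icam2), chr3:116109949-116129688 (Vcam1) and chr16:52248996-52454074 (Alcam). Exons of Selp, Cd34, Icam1 and Vcam1 overlap genes on the opposite strand, and whether counting used the strand is not given in the sources used here, so reads of those partners cannot be told apart. The Cdh5 promoter marks endothelium of arteries, capillaries, veins and lymphatics alike, so a level is an average over all vessels of an organ, and in such bulk RNA fewer expressing cells and less RNA per cell cannot be told apart.

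Leukocytes leave the blood in steps. They first roll on selectins, which bind sugars carried by mucin-like proteins such as PSGL-1, and then stop and spread when their integrins grip immunoglobulin family ligands such as ICAM-1 and VCAM-1. Resting endothelium carries little E-selectin, and endotoxin and inflammatory cytokines switch on E-selectin, P-selectin, ICAM-1 and VCAM-1 largely through NF-kappaB, which binds kappaB motifs in DNA.

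The sequences just upstream of 4 members that rose in brain and heart are shown because these genes moved together. They are the 160 bases before the annotated RefSeq start (GRCm38.p6, plus strand): Sele at chr1:164048074-164048233, Selp at chr1:164115104-164115263, Icam1 at chr9:21015780-21015939 and Madcam1 at chr10:79664399-79664558. Capitals mark stretches that match at least 9 of the 10 letters of the kappaB consensus on either strand.
Sele: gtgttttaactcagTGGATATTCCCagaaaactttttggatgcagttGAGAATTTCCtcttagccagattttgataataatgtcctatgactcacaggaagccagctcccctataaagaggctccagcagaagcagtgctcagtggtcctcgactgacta
Selp: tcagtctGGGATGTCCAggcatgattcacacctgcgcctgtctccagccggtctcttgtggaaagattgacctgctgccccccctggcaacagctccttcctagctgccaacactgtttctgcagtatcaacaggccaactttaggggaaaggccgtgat
Icam1: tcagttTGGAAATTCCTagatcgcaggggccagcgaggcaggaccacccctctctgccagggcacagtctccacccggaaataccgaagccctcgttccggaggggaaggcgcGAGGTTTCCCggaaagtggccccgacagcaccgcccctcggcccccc
Madcam1: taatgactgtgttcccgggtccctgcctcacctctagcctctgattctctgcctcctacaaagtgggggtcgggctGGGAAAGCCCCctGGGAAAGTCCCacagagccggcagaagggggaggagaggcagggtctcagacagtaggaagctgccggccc
The promoter table held 6 of the 10 members (also Cd34 and Alcam) and was searched over 250 bases before to 50 bases after each start. Madcam1 alone of the 6 held the full consensus, at 2 places on the opposite strand (chr10:79664476-79664485 and chr10:79664489-79664498), against 4.51% of all 32851 promoters with at least 1 full match. Sele, Selp and Icam1 held only stretches 1 letter short of it, where 45.5% of all promoters held at least 9 of the 10 letters, and Cd34 and Alcam held neither. A match of letters is a description of the window and not evidence of binding.

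Of 98 libraries, 80 were used (28 of brain, 24 of lung and 28 of heart), with 4 to 6 libraries per group apart from 2 for lung at 24 hr. The 18 left out had under 3% of their reads on genes. Counts on genes ran from 7226796 to 32891759 in brain, from 284457 to 43417945 in lung and from 8136031 to 33050750 in heart, so the lung values are the least precise. Levels are counts per 1000000 counts after TMM scaling (CPM). The labels do not say which libraries came from separate animals beyond naming them replicates, so p-values measure the spread between these libraries. Endothelial markers (11 genes such as Cdh5 and Pecam1) were all present in every tissue, with sums of 1852 to 3866 CPM in brain, 11780 to 16350 in lung and 10550 to 11950 in heart at 0 hr. Transcripts of other cells were present too: neuron markers summed to 1065 to 4482 CPM in brain at 0 hr, alveolar epithelium markers to 2831 to 9256 CPM in lung and cardiomyocyte markers to 3304 to 6653 CPM in heart. In lung at 6 hr the neuron markers also summed to 10.4 to 693 CPM and the cardiomyocyte markers to 83.7 to 2477 CPM, against 108 to 397 and 55.9 to 155 CPM at 0 hr. By library the cardiomyocyte sums were 1164, 2477, 83.7 and 549 CPM in lung 6 hr replicates 1 to 4. The part of RNA from other organs in the lung values at 6 hr was not tested.

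The LPS response of 4 libraries, set apart here, went against the label or was far below that of their group. Lcn2, a strongly LPS-induced gene, stood at 289 CPM in the library labelled brain 6 hr replicate 6 against 4844 to 8542 in the other brain 6 hr libraries, at 46.7 CPM in the library labelled heart 6 hr replicate 5 against 3062 to 6792, and at 12.3 CPM in the library labelled heart 72 hr replicate 1 against 580.8 to 3749. The library labelled lung 6 hr replicate 4 held only 284457 counts, so that a single count there is worth 28.9 CPM. These 4 libraries were kept in the values below, and the changes without them are given beside them. At 48 hr replicates 1 and 2 of each tissue also held less Lcn2 than the rest of their group and were not set apart. They stood at 955 and 298.5 CPM against 7628 to 26000 in brain, and at 910 and 632 against 3040 to 18530 in heart. In lung they stood at 334 and 239 CPM against 1350 to 2223. In each tissue the library set apart at 6 hr was also the only 6 hr library of its library series, a technical batch read from 4 patterns of file names and used as a covariate. Within that series alone the log2 change of Icam1 in brain at 6 hr was -0.32, and other changes that turned around are given below. Within the other series, which held the remaining 6 hr libraries, 7 of 10 members were called in brain, 10 of 10 in heart and 0 of 10 in lung. The shares of all genes called within that other series are not given, so these counts are not read as a result about the members.

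At 0 hr the sialomucins Podxl and Cd34 and the constitutive ICAM-2 were among the 4 highest members in brain and the 3 highest in lung and heart, and the selectins and Madcam1 were among the lowest members in brain. Per kilobase of exon, Podxl was the highest member in all 3 tissues, at 105 ± 43.5 CPM per kb in brain (SD, n = 5), 547.5 ± 194 in lung (n = 4) and 495 ± 58.9 in heart (n = 5). In heart the order by CPM per kb then ran Icam2 (221 ± 22.6), Cd34 (168 ± 19.0), Icam1 (24.7 ± 3.96), Vcam1 (17.6 ± 2.17) and Selp (0.837 ± 0.133), and no 2 neighbours among Podxl, Icam2, Cd34, Icam1, Vcam1, Selp and Sele overlapped in their libraries. In brain, Podxl, Alcam (46.4 ± 28.1), Cd34 (43.6 ± 10.1) and Icam2 (41.8 ± 13.5) overlapped each with the next. All 4 means lay above that of Vcam1 (17.6 ± 5.49), but the lowest Alcam library (18.3) lay below the highest Vcam1 library (23.3). In lung, Podxl, Icam2, Cd34, Icam1 and Vcam1 overlapped each with the next, and Icam2 was spread widest, at 111 ± 169 CPM per kb, because replicate 4 held 365 against 21.3 for the lowest library. The lowest member was Madcam1 in brain and lung, at 0.0146 ± 0.0133 and 0.0136 ± 0.0272 CPM per kb, and Selplg in heart, at 0.0885 ± 0.0461.

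**Figure D1:**
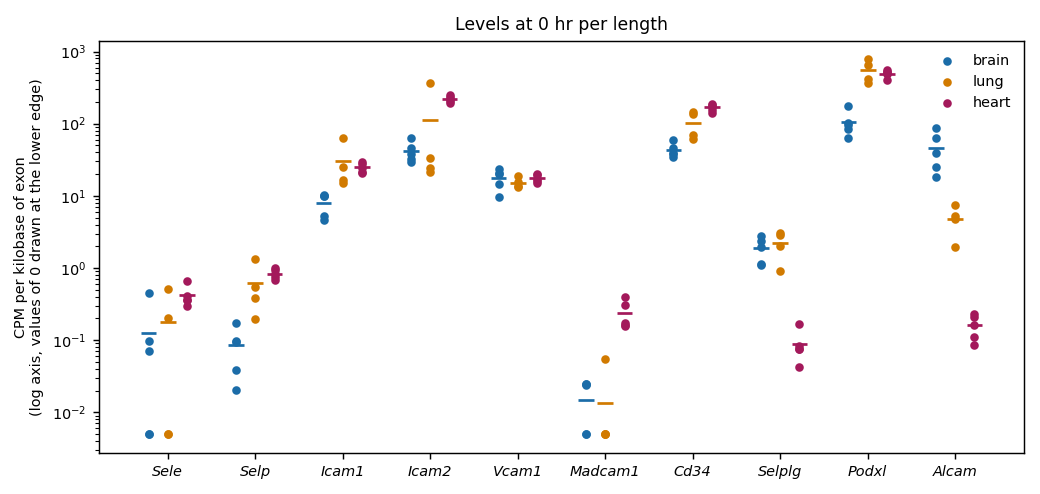
Level of each member at 0 hr in CPM per kilobase of exon on a log axis, for 5 brain, 4 lung and 5 heart libraries; each point is a library, bars are group means, and values of 0 are drawn at the lower edge. Podxl is highest in all 3 tissues, Alcam falls from brain to lung to heart, and Selplg is lowest in heart.

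Whether baseline levels differ between vascular beds was tested on the 0 hr libraries alone, for 9 of the 10 members (Madcam1 did not pass the filter on low counts there). Libraries of brain held less Selp, Icam1, Cd34 and Podxl mRNA per total counts than those of both other organs, and more Alcam. The 11 endothelial markers were lower in brain as well, with sums of 1852 to 3866 CPM against 11780 to 16350 in lung and 10550 to 11950 in heart, so less of a mRNA per EC and a smaller share of EC mRNA in the library cannot be told apart. Between brain and lung 5 of 9 members were called, 1 higher and 4 lower in brain, against 64.3% of all genes tested. Between brain and heart 7 of 9 were called, 2 higher and 5 lower in brain, against 54.8% of all genes, and between lung and heart 2 of 9 were called, against 61.1%. These shares sit beside a large general difference between the tissues, in which the members are not set apart.

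The largest fitted difference between tissues was that of Alcam, an immunoglobulin family molecule that binds CD6 on T cells and is also made by neurons. Its level at 0 hr was 615, 449, 180, 278 and 130.5 CPM in the brain libraries, 52.5, 37.4, 34.4 and 13.9 CPM in lung and 0.788, 1.14, 0.610, 1.49 and 1.65 CPM in heart. No library of one tissue overlapped another tissue. The fitted difference was 7.95 ± 0.57 on the log2 scale between brain and heart (SE; edgeR, adjusted p = 1.83e-08), 3.10 ± 0.50 between brain and lung and 4.85 ± 0.51 between lung and heart. The 6 neuron markers, with median sums of 2794 CPM in brain, 262 in lung and 109 in heart at 0 hr, had the same order, and their part in the Alcam level was not tested.

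Selplg, which encodes the selectin ligand PSGL-1 that leukocytes carry, was also lowest in heart. It stood at 4.67, 4.80, 10.1, 11.9 and 8.34 CPM in brain, at 12.2, 13.0, 3.93 and 8.60 in lung and at 0.350, 0.327, 0.179, 0.325 and 0.708 in heart at 0 hr. Brain and lung libraries overlapped, and all of them lay above the heart. The log2 difference was 4.28 ± 0.47 between brain and heart (adjusted p = 1.76e-06) and 4.70 ± 0.49 between lung and heart (adjusted p = 2.68e-06), and between brain and lung it was -0.42 ± 0.43 (adjusted p = 0.406).

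Relative to all counts, and beside the lower endothelial marker sums of brain, Podxl was lower in brain by 2.44 ± 0.36 on the log2 scale than in lung and by 2.27 ± 0.35 than in heart. Cd34 was lower in brain by 1.28 ± 0.30 and 1.98 ± 0.29, Selp by 2.90 ± 0.57 and 3.36 ± 0.55, and Icam1 by 1.89 ± 0.35 and 1.75 ± 0.34, in the same order, all with adjusted p of 0.00169 or less. Icam2 was lower in brain than in heart by 2.48 ± 0.58, while against lung its difference of -0.98 ± 0.63 did not pass the test. With the mouse, read from file names, as a block in place of library series, the brain minus lung difference was 0.59 (adjusted p = 0.0805). Without lung 0 hr replicate 4, Icam2 was lower in lung than in heart by 2.99 on the log2 scale (adjusted p = 2.52e-07). Vcam1 was the member whose baseline differed least, with log2 differences of 0.13 (95% limits -0.37 to 0.63) between brain and lung, -0.05 (-0.53 to 0.42) between brain and heart and -0.18 (-0.69 to 0.32) between lung and heart. Vcam1 CPM at 0 hr was 84.2 to 207 in brain, 117 to 167 in lung and 135 to 181 in heart.

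After LPS, Sele, Selp, Icam1 and Madcam1 rose in brain and heart at 6, 24 and 48 hr, Vcam1 rose in heart at the same times, and Icam2 and Cd34 fell in both organs at 6 hr. In brain 7 of 10 members were called at 6 hr (5 up and 2 down), 6 at 24 hr (4 and 2), 6 at 48 hr (5 and 1) and 5 at 72 hr (5 and 0), against 6.44%, 11.2%, 14.2% and 3.53% of all genes tested. In heart 10 of 10 were called at 6 hr (7 up and 3 down), 6 at 24 hr (5 and 1), 6 at 48 hr (6 and 0) and 2 at 72 hr (2 and 0), against 42.8%, 16.2%, 4.19% and 0.275%. In lung 3 of 10 were called at 6 hr, all up, against 4.83% of all genes. All comparisons of a tissue share its 0 hr libraries. At 48 hr replicates 1 and 2, of another library series than the rest, held less Selp than the other 4 libraries, at 23.6 and 5.86 CPM against 205 to 391 CPM in brain and at 93.2 and 55.6 against 354 to 574.5 CPM in heart. Without them lung Selp was called at 48 hr (4.28, adjusted p = 0.00482, and 3.66, adjusted p = 0.0449, without lung 48 hr replicate 2 alone), as was the fall of Icam2 in heart (-1.04, adjusted p = 0.0239).

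No member was called in lung at 24, 48 or 72 hr by edgeR, where 0.375%, 0.598% and 0.193% of all genes were. At an unadjusted p under 0.05, 3, 4 and 1 members passed there, DESeq2 called 0, 1 and 0, and limma-voom called 0 each time. At 168 hr no member was called in brain (0% of all genes), lung (0.0117%) or heart (0%), with 0, 1 and 0 members at an unadjusted p under 0.05 and 0 by DESeq2 and limma-voom. In each tissue 2 of the 4 libraries at 168 hr are of a library series with no 0 hr library. At 6 hr the 10 members had median log2 changes of 0.44 (brain), 0.75 (lung) and 2.65 (heart), beside 0, -0.42 and -0.05 over all genes tested. Lung changes at 6 hr are therefore to be read against a general shift of -0.42.

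**Figure D2:**
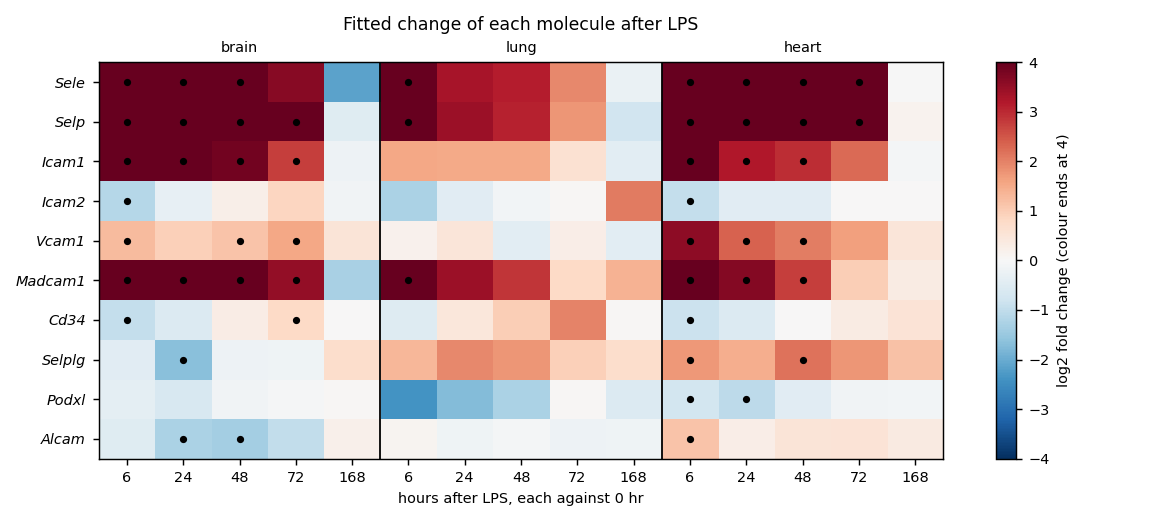
Fitted log2 fold change of each member (rows) at each time after LPS against 0 hr (columns) in brain, lung and heart, with the colour scale ending at 4 in either direction; a dot marks an adjusted p under 0.05 in edgeR. Sele, Selp, Icam1 and Madcam1 are red and dotted at 6, 24 and 48 hr in brain and heart, lung has 3 dots, all at 6 hr, and no column at 168 hr has a dot.

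E-selectin (Sele), which is made by activated endothelium only and holds rolling leukocytes, was near the floor at 0 hr and rose in brain and heart. In brain it stood at 0, 1.32, 0, 0.281 and 0.207 CPM at 0 hr, and at 13.4, 18.8, 11.4, 9.90 and 0.0771 CPM at 6 hr, the last in the library labelled brain 6 hr replicate 6. At 24 hr it stood at 160, 20.8, 15.1 and 14.8 CPM, with the brain replicate 1 far above the others. All 24 hr libraries and 4 of 5 at 6 hr lay above every control. The log2 change was 6.59 ± 1.32 at 6 hr (SE; adjusted p = 0.0026), 6.56 ± 1.30 at 24 hr (adjusted p = 0.00259) and 6.06 ± 1.32 at 48 hr (adjusted p = 0.00473). At 48 hr the 6 brain libraries ranged from 0.648 to 147 CPM with a median of 45.6, and at 72 hr the values were 0.512, 0.542, 6.91 and 22.2 CPM, which overlapped the controls and did not pass the test (3.65 ± 1.38, adjusted p = 0.168). By 168 hr Sele was between 0 and 0.728 CPM.

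In heart, Sele rose at 6, 24, 48 and 72 hr. Its 0 hr values were 0.876, 1.06, 1.04, 1.92 and 1.18 CPM, its 6 hr values 46.3, 136, 23.3, 81.6 and 2.68 CPM, the last in the library labelled heart 6 hr replicate 5, and its 24 hr values 114, 49.6, 56.3 and 39.3 CPM. Every heart library at 6, 24 and 48 hr exceeded every control. Heart Sele thus rose by 5.78 ± 0.94 (6 hr), 5.23 ± 0.94 (24 hr), 5.12 ± 0.93 (48 hr) and 4.80 ± 0.97 (72 hr, adjusted p = 0.0342) on the log2 scale. The 72 hr values were 1.74, 19.9, 35.1 and 145 CPM, and the lowest of them, in the library labelled heart 72 hr replicate 1, overlapped the controls. The 72 hr calls of Sele and Selp in heart were lost without any 1 of 9 and of 23 libraries, respectively (adjusted p up to 0.14 and 0.215). In lung, Sele was 0, 0.593, 0 and 1.49 CPM at 0 hr and 0, 78.6, 8.08 and 0 CPM at 6 hr. Only 2 of 4 lung libraries, replicates 2 and 3, were above the controls at 6 hr. Their cardiomyocyte markers summed to 2477 and 83.7 CPM, and the part of heart RNA in these Sele values was not tested. The counts of 0 at 6 hr allow up to 1.79 CPM in replicate 1 and 86.7 CPM in replicate 4 (3 counts, counting error only). The lung change of 5.83 ± 1.63 (adjusted p = 0.0332) fell to 3.66 (adjusted p = 0.188) without replicate 2 at 6 hr, and its call was lost without any 1 of 5 libraries.

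P-selectin (Selp), which endothelium and platelets store in granules and which starts leukocyte rolling, had the steepest rise in brain of the 10 genes by fitted fold change. Brain libraries held 0.0898, 0.774, 0.425, 0.421 and 0.172 CPM at 0 hr, then 110, 124, 134, 63.1 and 0.694 CPM at 6 hr, the last again in replicate 6, and 303, 143, 134 and 127 CPM at 24 hr. Apart from that library, no brain library at 6, 24, 48 or 72 hr overlapped a control. Brain Selp rose by 8.54 ± 1.27 on the log2 scale at 6 hr (adjusted p = 0.000202), by 8.20 ± 1.25 at 24 hr, by 7.86 ± 1.26 at 48 hr and by 6.78 ± 1.26 at 72 hr (adjusted p = 0.00179), and the 168 hr libraries stood at 0.355 to 1.92 CPM, 1 of 4 of them above all controls. The ratio of mean CPM to 0 hr was 229 at 6 hr and 556 at 48 hr.

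Heart Selp began at 2.98, 3.27, 4.20, 3.67 and 4.35 CPM and stood at 552, 932, 454, 460 and 6.50 CPM at 6 hr and 514, 229, 504 and 454 CPM at 24 hr. Even the lowest of these lay above all controls. On the log2 scale the rise was 7.34 ± 1.02 at 6 hr (adjusted p = 2.27e-05) and 6.02 ± 1.00 at 24 hr. It was 5.69 ± 0.98 at 48 hr and 4.43 ± 0.97 at 72 hr (adjusted p = 0.0445). Lung Selp rose at 6 hr from 0.870, 1.71, 2.44 and 5.86 CPM to 103, 186, 51.1 and 28.9 CPM, a log2 change of 5.45 ± 1.08 (adjusted p = 0.00426), where the last value rests on 1 count. At 168 hr heart Selp stood at 17.7, 5.77, 5.69 and 4.00 CPM and heart Sele at 3.28, 2.27, 0.728 and 1.95 CPM, with 3 of 4 libraries of each above all controls and changes of 0.14 ± 1.01 and -0.02 ± 1.13 that did not pass the test. The 2 lung libraries at 24 hr held 45.8 and 76.9 CPM, above all controls, but the change of 3.43 ± 1.20 did not pass the test (adjusted p = 0.428).

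Platelets also carry Selp mRNA, and their markers were looked at beside it. In heart, where Gp6 was at 0 in all controls, the 8 platelet markers summed to 4.34 to 7.89 CPM at 0 hr and 4.02 to 123 CPM at 6 hr, of which Pf4 alone made up a median of 65.8 CPM, and 2 of the 8 reached a median of 1 CPM. Over the 28 heart libraries Selp correlated with the mean of these markers (Pearson r = 0.73, Spearman rho = 0.64), libraries that share the time course. In brain the platelet sum was 3.05 to 13.5 CPM at 0 hr and 4.93 to 12.7 CPM at 6 hr, and r over 28 libraries was 0.05. The part of platelets in the heart result was not tested.

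Selplg, Cd34, Podxl and Madcam1 carry ligands of selectins or integrins. Madcam1, known as the addressin of gut venules that binds integrin alpha4beta7, was nearly absent at 0 hr and rose in brain and heart. In the 5 brain controls it summed to 3 counts in all (0, 0, 0.0354, 0.0351 and 0.0345 CPM), against 1.89, 1.08, 2.08, 1.23 and 0.0771 CPM at 6 hr and 3.03, 1.71, 4.88 and 7.36 CPM at 24 hr. Every brain library at 6, 24, 48 and 72 hr lay above every control. The ratio of pooled CPM to 0 hr was 51.3 at 6 hr (95% counting interval 17.3 to 252) and 165 at 24 hr (56.2 to 804), and edgeR called Madcam1 at 6, 24, 48 and 72 hr (adjusted p = 0.000266, 0.0002, 0.000744 and 0.0299, the last lost without any 1 of 7 libraries). Fitted fold changes from so few control counts depend on the prior count and are not read as bounds. At 168 hr it was back to 3 counts.

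Heart Madcam1 was 0.438, 0.245, 0.574, 0.227 and 0.236 CPM at 0 hr, 4.75, 9.05, 9.06, 9.89 and 0.191 CPM at 6 hr and 5.37, 5.96, 6.69 and 6.86 CPM at 24 hr. All but the library labelled heart 6 hr replicate 5 stood above the controls. The log2 change was 4.38 ± 0.74 at 6 hr (adjusted p = 0.000129), 3.67 ± 0.74 at 24 hr and 2.77 ± 0.73 at 48 hr (adjusted p = 0.0315, lost without any 1 of 6 libraries). At 168 hr it stood at 0.364, 1.14, 0.647 and 0.605 CPM, a ratio of pooled CPM of 1.93 (counting interval 1.275 to 2.97), and did not pass the test. In lung it had 1 count in all 4 controls and 75 counts at 6 hr, 20 and 55 of them in replicates 1 and 3 and none in the others. The lung call at 6 hr (adjusted p = 0.023, or 0.0702 and 0.103 without 0 hr replicate 2 or 3) thus rests on 2 of 4 libraries, and its ratio of pooled CPM of 142.5 has a counting interval of 24.8 to 5702. Cardiomyocyte markers summed to 1164 CPM in lung 6 hr replicate 1 and to 83.7 in replicate 3. The part of heart RNA in these Madcam1 counts was not tested.

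Selplg moved in opposite directions in brain and heart. In brain it was 6.93, 6.74, 5.97, 12.1 and 3.85 CPM at 6 hr, within the range of the controls but for the extremes, and 1.07, 2.77, 0.956 and 0.470 CPM at 24 hr, where all 4 libraries were below all controls. The fall of 1.68 ± 0.50 on the log2 scale at 24 hr passed the test (adjusted p = 0.032) but lost the call without any 1 of 8 libraries (adjusted p up to 0.159). In heart it was 1.05, 1.40, 2.47, 1.45 and 0.191 CPM at 6 hr and rose by 1.72 ± 0.54 (adjusted p = 0.0146, or 0.054 without replicate 3). At 48 hr it ranged from 0.562 to 2.99 CPM with a rise of 2.18 ± 0.53 (adjusted p = 0.0194, lost without any 1 of 4 controls). Lung values at 6 hr were 46.6, 84.4, 23.8 and 0 CPM, of which 3 exceeded all controls, and the change of 1.34 ± 0.78 did not pass the test (adjusted p = 0.30).

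Since leukocytes express Selplg, it was set beside their markers. The 6 general leukocyte markers (such as Ptprc, the pan-leukocyte CD45) summed to 6.92 to 13.0 CPM in heart at 0 hr and 6.70 to 19.9 at 6 hr, to 87.3 to 876.5 CPM in lung at 0 hr and 375.6 to 4166 at 6 hr, and to 27.0 to 108 CPM in brain at 0 hr and 27.4 to 155 at 24 hr. Over the libraries of one tissue, which share time points, Selplg correlated with the mean log2 CPM of these markers with Pearson r = 0.87 in lung (24 libraries, rho = 0.74), 0.86 in heart (28 libraries, rho = 0.88) and 0.56 in brain (28 libraries, rho = 0.61). Without the 2 libraries farthest from the median of the markers r was 0.72, 0.81 and 0.48. In brain, Selplg correlated with 5 microglia markers at r = 0.77 (rho = 0.71). The sum of these 5 markers did not fall with it, at 115.5 to 184 CPM at 0 hr and 120 to 209.5 CPM at 24 hr. Among them P2ry12, a gene of resting microglia, had medians of 8.35 CPM at 0 hr and 0.649 CPM at 24 hr. The part of leukocytes and microglia in the Selplg values was not tested.

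**Figure D3:**
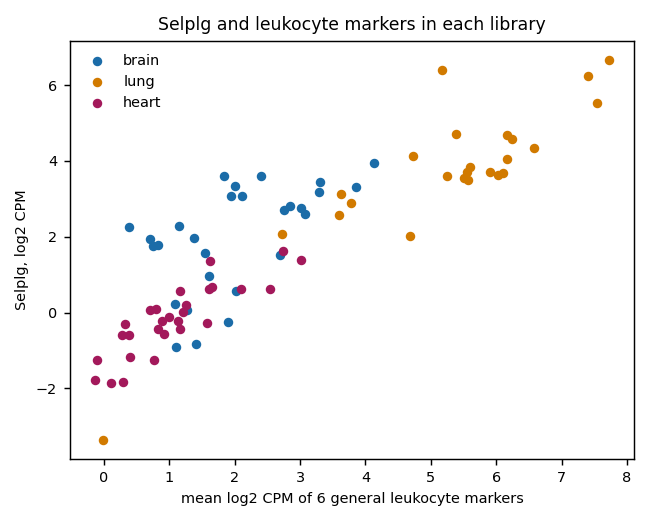
Selplg (log2 CPM) against the mean log2 CPM of 6 general leukocyte markers in each of 28 brain, 24 lung and 28 heart libraries. Points of heart lie at the lower left and most points of lung at the upper right, with r = 0.86 and 0.87 within those tissues; the lung point at the lower left is the library labelled lung 6 hr replicate 4.

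Cd34 and Podxl are sialomucins that resting endothelium carries on its luminal side. Cd34 fell at 6 hr in brain and heart. In brain it went from 286, 435, 248, 340 and 279 CPM at 0 hr to 130, 135, 131, 140 and 278 CPM at 6 hr, and the 4 lower libraries lay below every control while replicate 6 lay among them. The fall was 0.95 ± 0.21 on the log2 scale (adjusted p = 0.00539). In heart all 5 libraries at 6 hr (458, 476, 566, 978 and 908 CPM) were below the controls (1031 to 1385 CPM), a fall of 0.85 ± 0.29 (adjusted p = 0.0201) whose call was lost without replicate 1 or 2 at 6 hr (adjusted p = 0.0597 and 0.0562). Brain Cd34 was later above its start, at 376, 465, 698 and 673 CPM at 72 hr, with a log2 change of 0.81 ± 0.22 (adjusted p = 0.0407) that lost its call without any 1 of 7 libraries. Lung Cd34 was 1870 to 3931 CPM at 72 hr, above all controls at 444 to 1061 CPM, but its change of 1.99 ± 0.73 did not pass the test (adjusted p = 0.414, or 0.0457 without lung 6 hr replicate 3).

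Podxl fell in heart, from 2198, 2819, 3037, 2648 and 2891 CPM at 0 hr to 1277, 1116, 1515, 1150 and 3028 CPM at 6 hr and to 1270, 1209, 1016 and 1274 CPM at 24 hr. The 24 hr libraries and 4 of the 5 at 6 hr were below every control. The fall was 0.73 ± 0.28 at 6 hr (adjusted p = 0.0379) and 1.04 ± 0.33 at 24 hr (adjusted p = 0.0351), and the calls were lost without any 1 of 8 libraries at 6 hr and of 7 at 24 hr (adjusted p up to 0.0993 and 0.138). In lung Podxl stood at 2255, 3516, 4257 and 1992 CPM at 0 hr and at 76.5, 173, 2130 and 173 CPM at 6 hr, and all 6 libraries at 48 hr (752 to 1588 CPM) were below all controls, although neither change passed the test (adjusted p = 0.0793 at 6 hr and 0.613 at 48 hr). Lung replicate 3 at 6 hr, the deepest of that group, decided this: without it Podxl fell by 4.85 (adjusted p = 1.5e-05) and Cd34 by 2.60 (adjusted p = 0.000649) on the log2 scale, against -2.40 and -0.51 with it. The fit without it rests on replicates 1, 2 and 4, with 6.93%, 8.12% and 3.41% of reads on genes against 33.9% in replicate 3. Their endothelial marker sums were 2066, 5996 and 2080 CPM against 13460 in replicate 3. Brain Podxl did not pass the test at any time, though it did at 24 hr without brain 0 hr replicate 3 (-0.77, adjusted p = 0.0438) or 48 hr replicate 2 (-0.68, adjusted p = 0.0476).

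Endothelial marker sums ran lower at 6 hr, though libraries overlapped those of 0 hr in each tissue. The sum was 1275 to 2508 CPM in brain against 1852 to 3866 at 0 hr, and 2066 to 13460 in lung against 11780 to 16350. In heart it was 4427 to 10860 against 10550 to 11950. Of the 11 markers, 5 were called lower and 2 higher in brain, 2 lower in lung, and 9 lower and 1 higher in heart. Of all genes tested 6.44%, 4.83% and 42.8% were called there. Among the markers Cdh5 went the other way in brain, with a median of 364.9 CPM at 6 hr against 222 at 0 hr. Over the libraries of a tissue Cd34 correlated with the mean of these markers at r = 0.85 in brain, 0.52 in lung and 0.61 in heart, and Podxl at 0.46, 0.72 and 0.46. The part of these marker changes in the fall of Cd34, Podxl and Icam2 was not tested. Over the 18 group means Cd34 and Podxl followed each other with r = 0.85.

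Icam1, the immunoglobulin family ligand of the leukocyte integrins LFA-1 and Mac-1, was already present at 0 hr and rose in brain and heart. Brain libraries held 44.1, 43.7, 22.8, 43.3 and 19.9 CPM at 0 hr, 656, 922, 651, 270 and 36.8 CPM at 6 hr and 1099, 612, 864 and 1215 CPM at 24 hr. Only replicate 6 at 6 hr overlapped the controls. Brain Icam1 rose by 4.18 ± 0.64 on the log2 scale at 6 hr (adjusted p = 0.000251), by 4.25 ± 0.65 at 24 hr, by 3.85 ± 0.63 at 48 hr and by 2.78 ± 0.60 at 72 hr (adjusted p = 0.00718). By 168 hr the libraries were at 35.8 to 64.2 CPM, 3 of 4 of them still above the highest control, with a change of -0.20 ± 0.65 that did not pass the test.

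In heart Icam1 went from 122, 89.9, 106, 129 and 92.8 CPM to 2151, 3548, 2485, 1803 and 123 CPM at 6 hr and 1684, 875, 1012 and 1115 CPM at 24 hr, with the low value at 6 hr in replicate 5. Per kilobase it became the highest member by mean in both organs at 6 hr, at 116 ± 80.4 CPM per kb in brain and 464 ± 286 in heart (SD, n = 5 each), though its libraries overlapped those of Podxl. The log2 change was 4.37 ± 0.61 at 6 hr (adjusted p = 2.25e-05), 3.19 ± 0.60 at 24 hr and 2.96 ± 0.57 at 48 hr, and 2.25 ± 0.57 at 72 hr, where it did not pass the test (adjusted p = 0.0987, or 0.00143 without 6 hr replicate 5 and 0.0118 without 72 hr replicate 1). Lung Icam1 was 73.0, 111, 64.9 and 275 CPM at 0 hr and 536, 424, 479 and 28.9 CPM at 6 hr, the last being 1 count. Its change of 1.54 ± 0.72 did not pass the test (adjusted p = 0.191), nor did the 2.15 ± 0.63 without replicate 4 (adjusted p = 0.0511).

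Vcam1, the ligand of integrin VLA-4, rose in heart and brain and was not called in lung. In heart its libraries stood at 140, 135, 181, 170 and 153 CPM at 0 hr, 3311, 2616, 2119, 1356 and 312 CPM at 6 hr and 674, 727, 755 and 837 CPM at 24 hr. No heart library at 6, 24, 48 or 72 hr overlapped a control, the library labelled heart 6 hr replicate 5 included. Heart Vcam1 rose by 3.59 ± 0.42 on the log2 scale at 6 hr (adjusted p = 8.97e-06), the smallest p of the 10 members there, 2.37 ± 0.43 at 24 hr and 2.04 ± 0.38 at 48 hr. At 72 hr the change of 1.65 ± 0.40 did not pass the test (adjusted p = 0.0816, or 0.00194 without 6 hr replicate 5 and 0.00749 without 72 hr replicate 1).

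In brain the Vcam1 rise was smaller, from 207, 176, 131, 183 and 84.2 CPM to 459, 447, 402, 324 and 206 CPM at 6 hr, with replicate 6 the single library inside the control range. The rise was 1.28 ± 0.34 at 6 hr (adjusted p = 0.019), 1.14 ± 0.32 at 48 hr and 1.56 ± 0.34 at 72 hr on the log2 scale, with a change of 0.94 ± 0.36 at 24 hr that did not pass the test (adjusted p = 0.085), the 72 hr rise being the largest (adjusted p = 0.00787, or 0.0627 without replicate 3). The 6 hr call was lost without brain 0 hr replicate 3, brain 0 hr replicate 5 or brain 6 hr replicate 2 (adjusted p = 0.0593, 0.0745 and 0.0513). In lung it was 117, 137, 167 and 120 CPM at 0 hr and 125, 153, 383 and 0 CPM at 6 hr. The lung groups overlapped, and the change was 0.16 ± 0.62 (95% limits -1.06 to 1.38).

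Icam2, which ECs carry at rest and which binds LFA-1, fell at 6 hr in brain and heart. Brain libraries went from 61.5, 120, 56.4, 88.5 and 71.8 CPM to 27.2, 33.8, 30.1, 40.2 and 51.4 CPM, and heart libraries from 453, 474, 415, 371 and 389 CPM to 102, 226, 175, 257 and 310 CPM. All 6 hr libraries of both organs were below all controls. The fall was 1.13 ± 0.28 on the log2 scale in brain (adjusted p = 0.0115) and 0.95 ± 0.29 in heart (adjusted p = 0.0123), and at 24 hr neither passed the test (adjusted p = 0.544 and 0.329). In lung, replicate 4 at 0 hr held 695 CPM against 40.5 to 64.6 CPM in the other 3, and no time point passed the test.

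Alcam fell in brain and rose slightly in heart. Brain libraries held 135, 106, 101, 178 and 573 CPM at 6 hr, 248, 80.1, 116 and 164 CPM at 24 hr and 68.2 to 214 CPM at 48 hr (median 104.5), against 130.5 to 615 CPM at 0 hr, so the groups overlapped at every time. The fall was 1.28 ± 0.39 at 24 hr (adjusted p = 0.0343) and 1.36 ± 0.33 at 48 hr (adjusted p = 0.00988) on the log2 scale. The 24 hr call was lost without any 1 of 10 libraries (adjusted p up to 0.112). In heart all 5 libraries at 6 hr (2.43, 3.10, 1.73, 3.47 and 1.79 CPM) exceeded the controls, a rise of 1.15 ± 0.36 (adjusted p = 0.0142) at a level near 2 CPM. Neuron markers in brain summed to 584 to 4007 CPM at 24 hr, and over the 28 brain libraries Alcam correlated with their mean at r = -0.29. In lung, 2 libraries stood high, 6 hr replicate 1 at 158 CPM and 48 hr replicate 2 at 120 CPM, and no time passed the test.

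**Figure D4:**
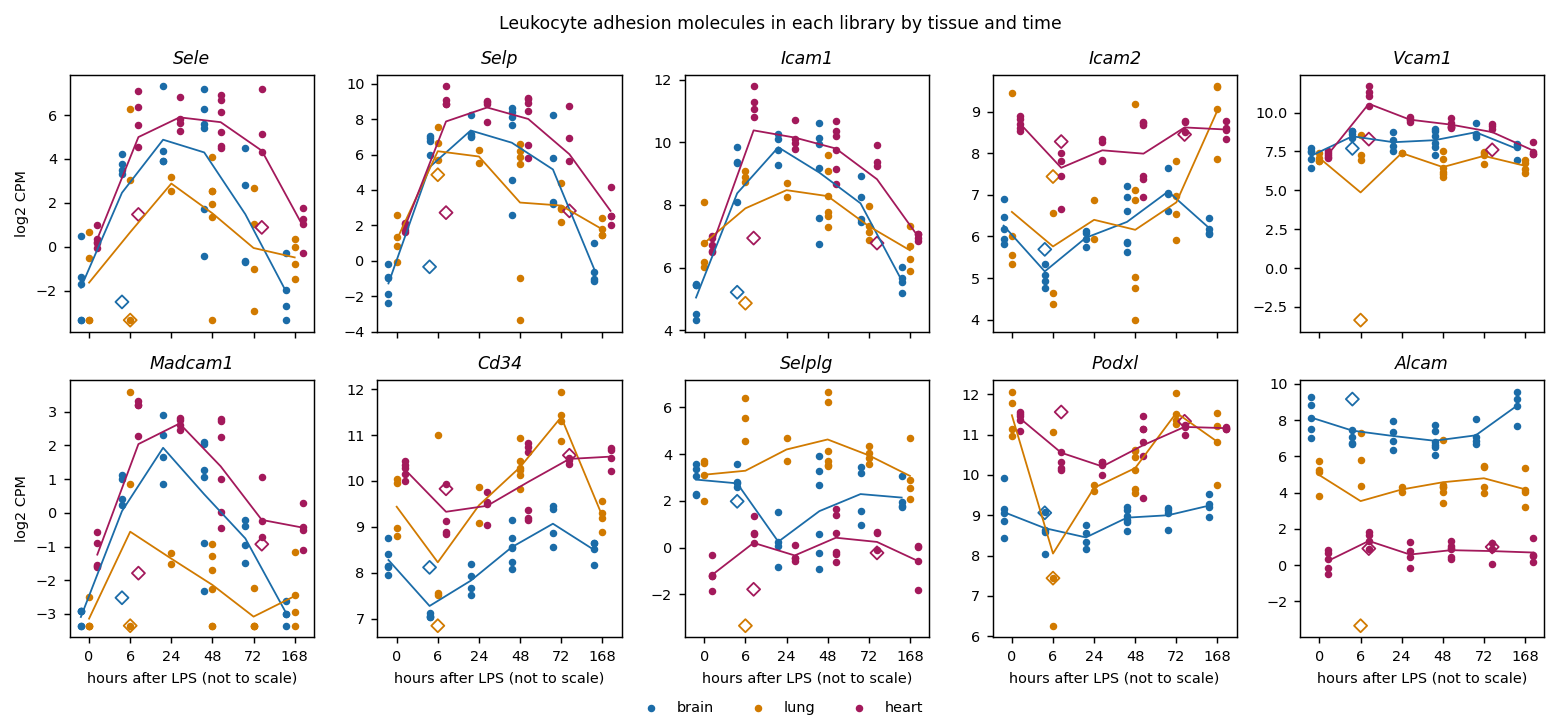
Level of each member in every library as log2 CPM (prior count 2), by hours after LPS (axis not to scale) in brain, lung and heart, each panel with its own vertical scale; lines join group means and open diamonds are the 4 libraries that stand apart. Sele, Selp, Icam1 and Madcam1 are raised at 6 to 48 hr in brain and heart and lie near or partly above their 0 hr points at 168 hr, and Vcam1 is highest in heart at 6 hr. The diamonds of brain and heart at 6 hr lie near the 0 hr points. The lung diamond at 6 hr lies away from them in several panels, as for Vcam1 at -3.35 against 6.87 to 7.38.

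Whether the early and late responses differ was tested as 24 hr against 6 hr. By edgeR no member was called in brain, lung or heart, against 0.291%, 0.00586% and 4.74% of all genes. At an unadjusted p under 0.05, 3, 0 and 1 members passed, DESeq2 called 0, 0 and 1, and limma-voom called 0 each time. In lung, Cd34 and Podxl were called higher at 24 hr than at 6 hr without 6 hr replicate 3 (2.89, adjusted p = 0.00255, and 2.92, adjusted p = 0.00587). The lung 6 hr libraries left in that fit had 3.41% to 8.12% of their reads on genes. In heart the test of 24 hr against 6 hr turned on the library labelled 6 hr replicate 5. That library was chosen for its low LPS response, so a fall from 6 to 24 hr without it follows in part from that choice. Without the libraries that stand apart, Vcam1, Icam1 and Selp were called lower at 24 hr than at 6 hr, by 1.56 ± 0.27 (adjusted p = 0.000215), 1.59 ± 0.32 (adjusted p = 0.000876) and 1.72 ± 0.60 (adjusted p = 0.0322) on the log2 scale, while 29.8% of all genes were called there. Sele was -0.94 ± 0.60 (adjusted p = 0.251) and Madcam1 -1.26 ± 0.51 (adjusted p = 0.0652) in that fit.

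Interaction terms compared the response of one tissue with that of another. At 6 hr the Vcam1 response was larger in heart than in lung, with a log2 difference of -3.24 ± 0.72 for lung minus heart (adjusted p = 0.00668), the only 1 of 10 members called there, against 12.2% of all genes. No member was called at 6 hr between brain and lung (7.71% of all genes) or between brain and heart (0.132%) by edgeR. At an unadjusted p under 0.05 there were 4 and 3 members, DESeq2 called 1 each and limma-voom 0 each. For Vcam1 the brain minus heart difference was -2.43 ± 0.67 (adjusted p = 0.174), and -2.56 ± 0.51 (adjusted p = 0.00416) without the libraries that stand apart. That fit leaves out the libraries chosen for a low LPS response. Of all genes it called 8.29% (brain minus lung), 3.83% (brain minus heart) and 14.7% (lung minus heart). In that fit the lung responses of Selp (-2.13 ± 0.68), Icam1 (-2.63 ± 0.60) and Vcam1 (-3.28 ± 0.56) were smaller than those of heart, those of Selp and Icam1 in brain exceeded lung by 2.93 ± 0.71 and 2.30 ± 0.59, and the Alcam response was lower in brain than in lung by 2.35 ± 0.73. Without lung 6 hr replicate 3, in place of those libraries, the Podxl response was called between brain and lung (4.12, adjusted p = 8.92e-06) and between lung and heart (-3.76, adjusted p = 1.98e-05). The lung 6 hr libraries left there had 3.41% to 8.12% of their reads on genes.

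At 24 hr, where lung has 2 libraries, 3 members were called between brain and lung (8.75% of all genes), 2 between brain and heart (2.37%) and 3 between lung and heart (5.13%). Selp and Icam1 responded more in brain than in lung, by 4.41 ± 0.72 (adjusted p = 0.000394) and 3.35 ± 0.56 (adjusted p = 0.000535), and less in lung than in heart, by -2.36 ± 0.64 and -1.95 ± 0.54. With the mouse, read from file names, as a block in place of library series, these lung minus heart calls of Selp and Icam1 were lost (-1.85, adjusted p = 0.0821, and -1.40, adjusted p = 0.0705), and Selp and Icam1 were called between brain and heart (2.12, adjusted p = 0.0231, and 1.37, adjusted p = 0.0329). Vcam1 responded less in lung than in heart (-1.97 ± 0.43, adjusted p = 0.00861) and less in brain than in heart (-1.39 ± 0.36, adjusted p = 0.0406). Selplg responded less in brain than in lung (-3.75 ± 0.72) and heart (-3.58 ± 0.71). The brain minus heart call of Vcam1 was lost without any 1 of 16 libraries (adjusted p up to 0.12), the lung minus heart call of Vcam1 without either lung library at 24 hr (adjusted p = 0.0586 and 0.154), those of Selp and Icam1 between lung and heart without any 1 of 8 and of 10 libraries, and the brain minus lung call of Selplg without lung 24 hr replicate 3 (adjusted p = 0.09).

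The libraries that stand apart were chosen for an LPS response against their label or far below their group. Larger LPS changes without these libraries follow from that choice and are no check of the changes. Without these libraries the same 7 members were called at 6 hr in brain, the same 3 in lung and all 10 in heart. The shares of all genes called there were 14.3%, 3.95% and 57.9%. In heart the fitted changes grew, from 4.37 to 4.75 for Icam1 (SE 0.30 in place of 0.61) and from -0.73 to -1.19 for Podxl. At 72 hr in heart 5 members were called in place of 2, since Icam1 (2.57 ± 0.29), Vcam1 (1.91 ± 0.24) and Selplg (1.94 ± 0.52) joined Sele (5.26 ± 0.65) and Selp (4.80 ± 0.59), while 2.91% of all genes were called.

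**Figure D5:**
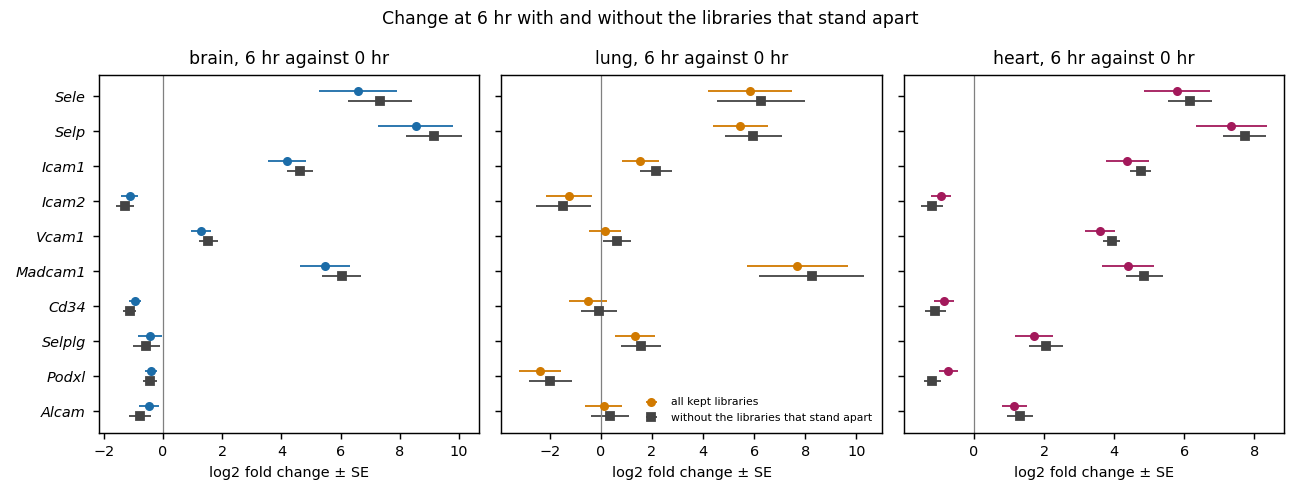
Log2 fold change at 6 hr against 0 hr (point) with its SE (bar) for each member in brain, lung and heart, from all kept libraries (coloured circles) and without the libraries that stand apart (grey squares). Each pair of points lies on the same side of 0, and the bars are shorter in heart without replicate 5 for Sele, Selp, Icam1, Vcam1 and Madcam1.

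Other genes of the adhesion cascade on endothelium were counted in the same way, beside 6.44%, 4.83% and 42.8% of all genes called at 6 hr in brain, lung and heart. Of 30 such genes, from junctional proteins to venular receptors, 6 rose and 1 fell in brain at 6 hr, 1 rose and 1 fell in lung, and 11 rose and 11 fell in heart (29 tested), with median log2 changes of 0.29, -0.48 and -0.08. Ackr1, a chemokine-binding receptor that marks venules, rose most in each tissue, by 3.53 ± 0.72 in brain, 4.82 ± 0.86 in lung and 5.59 ± 0.86 in heart. Its brain level went from a median of 51.3 CPM at 0 hr to 558.6 at 6 hr and 1359 at 24 hr. The lowest changes past the test were those of Bsg in brain (-1.80 ± 0.54), Nectin3 in lung (-1.90 ± 0.54) and the intermediate filament gene Vim in heart (-2.19 ± 0.49).

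Of the enzymes and carriers that build selectin ligands, with 11 tested and beside the same shares of all genes, 2 rose in brain at 6 hr, 1 fell in lung, and 2 rose and 2 fell in heart. The fucosyltransferase Fut4 rose in brain by 2.27 ± 0.40 and B3gnt3 by 1.55 ± 0.47, the galactosyltransferase B4galt1 rose in heart by 1.54 ± 0.28 and Glg1, an E-selectin ligand, fell there by 0.97 ± 0.27, and the sulfotransferase Chst2 fell in lung by 3.72 ± 0.76. Among counter-receptors that leukocytes carry, 1 of 11 was called in lung, where the integrin alpha chain Itgam rose by 2.97 ± 0.82, and Cd24a fell in heart by 1.07 ± 0.41. Of the neutrophil markers, 1 of 9 tested was called up in brain at 6 hr, 6 of 10 in lung and 7 of 8 in heart, with sums of 28.9 to 4135 CPM in lung and 0.957 to 62.6 CPM in heart at 6 hr against 45.7 to 211 and 0.933 to 1.55 CPM at 0 hr, and their part in these changes was not tested. The general LPS response genes rose in 8 of 8 cases in brain, 4 of 8 in lung and 8 of 8 in heart.

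The genes whose levels were most like those of the inducible members were largely one another. Over 18 group means and 12105 genes, Icam1 was the closest to both Selp (Pearson r = 0.966) and Sele (r = 0.955), and Selp and Sele followed each other with r = 0.937. Next came Zc3h12a for Sele (0.948), Cxcl1 for Selp (0.914) and Nfkbiz for Icam1 (0.94). Vcam1 stood apart from these, with r of 0.67, 0.52 and 0.61 with Sele, Selp and Icam1, and was closest to Icosl (0.914), Rrp15 (0.895) and Ltv1 (0.89). These correlations describe groups that share tissues and time points and carry no test.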

How the data were processed

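Polysomal mRNA pulled down with an antibody to HA was sequenced on an Illumina instrument. Per the submitters' processing notes and the study's methods, the authors aligned reads to mm10 with STAR 2.4.2 and deposited raw counts per gene from HTSeq 0.6.1; the annotation release and strand setting are not given in the sources used here. The study itself corrected for batch with ComBat and tested with limma after voom. Counts of the 217 deposited runs were summed to 98 libraries, reads on no gene were left out of library sizes (genes took 3.405% to 70.031% of reads in kept libraries), and 18 libraries with under 3% of reads on genes were left out. Of 52550 gene IDs, 52403 matched a symbol. No libraries were identical.

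Tests used edgeR 4.0.16 (quasi-likelihood, two-sided, TMM, filterByExpr by group, Benjamini-Hochberg adjustment over all genes tested, threshold 0.05) in R 4.3.3, with library series, read from 4 patterns of file names, as a covariate. Each tissue was fitted over all its times, and 0 hr and the interactions across tissues. Log2 CPM used a prior count of 2. DESeq2 1.42.0, limma-voom (limma 3.58.1), other scalings, filters, covariates, blocks and leaving out each library were alternatives. Tests were first tested on simulated data. The members and gene lists were chosen with earlier results of these data known, and the libraries that stand apart and the motif rule of 9 of 10 letters were chosen after seeing the data. Besides the members, the text names the 3 genes whose group means were most like those of Sele, Selp, Icam1 and Vcam1 and, from each list of adhesion, ligand synthesis, counter-receptor and LPS response genes, those that changed most at 6 hr. The result of 1 counter-receptor, and the list counts that rest on it, are not reported here. Ackr1, Lrg1, P2ry12 and Pf4 levels or changes outside that rule were chosen after their values were seen. Promoter sequences are from RefSeq (GRCm38.p6). Intervals and floors cover counting error only.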

Additional observations from a re-analysis of the deposited data

Results flagged for a closer look

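Of 170 groups of 4 to 6 libraries tested over the 10 members, 22 held a library whose gap to its nearest neighbour was large against the range of the group, where chance gives about 1 in 20. Values are log2 CPM, with the range of the other libraries in parentheses. The library labelled brain 6 hr replicate 6 was low for Sele at -2.52 (3.32 to 4.24), Selp at -0.34 (5.98 to 7.06) and Madcam1 at -2.52 (0.24 to 1.12), and high for Cd34 at 8.12 (7.03 to 7.13). The library labelled heart 6 hr replicate 5 was low for Selp at 2.72 (8.83 to 9.86), Icam1 at 6.94 (10.82 to 11.79) and Madcam1 at -1.79 (2.28 to 3.32). The library labelled lung 6 hr replicate 4, the shallowest, was low for Icam1 at 4.86 (8.73 to 9.07) and Vcam1 at -3.35 (6.97 to 8.58), and heart 72 hr replicate 1 was low for Vcam1 at 7.60 (8.97 to 9.24).

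Brain 24 hr replicate 1 was high for Sele at 7.32 (3.90 to 4.38) and Selp at 8.24 (6.99 to 7.16), and heart 24 hr replicate 2 was low for Selp at 7.84 (8.83 to 9.01). Vcam1 was high in brain 72 hr replicate 3 at 9.33 (8.45 to 8.60) and in heart 168 hr replicate 1 at 8.12 (7.30 to 7.44), and Selplg in brain 168 hr replicate 1 at 3.08 (1.75 to 1.93). In lung, Cd34 stood at 11.01 in 6 hr replicate 3 (6.85 to 7.56) and Icam2 at 9.44 in 0 hr replicate 4 (5.34 to 6.01). Lung 48 hr replicate 2 was low for Sele at -3.35 (1.37 to 4.07) and high for Alcam at 6.90 (3.41 to 4.41). Madcam1 stood at -2.51 in lung 0 hr replicate 4 and at -2.24 in lung 72 hr replicate 1, where the other libraries had no count and stood at -3.35.

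The response to LPS differed between tissues in the interaction test of edgeR for 9 pairs of member and tissue pair. At 6 hr this was Vcam1, by -3.24 for lung minus heart. At 24 hr it was Selp (4.41), Icam1 (3.35) and Selplg (-3.75) for brain minus lung, Vcam1 (-1.39) and Selplg (-3.58) for brain minus heart, and Selp (-2.36), Icam1 (-1.95) and Vcam1 (-1.97) for lung minus heart, all on the log2 scale.

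The 18 libraries left out for under 3% of reads on genes still held reads of the members, and the levels here exceeded the left-out 0 hr library of the same tissue, with 95% counting intervals that did not overlap. In brain Icam1 stood at 43.12, 38.11 and 17.11 CPM at 6, 24 and 48 hr, and Podxl at 20.4 and 22.18 CPM at 72 and 168 hr. In lung at 48 hr Selp stood at 9.771, Icam1 at 45.1 and Cd34 at 18.79 CPM. Lung Podxl stood at 25.31, 34.57, 60.51 and 17.81 CPM at 24, 48, 72 and 168 hr, and lung Icam2 at 19.84 and 17.81 CPM at 72 and 168 hr. In the kept libraries lung Podxl went the other way at 24 and 48 hr, at 771 to 867 and 752 to 1588 CPM against 1992 to 4257 at 0 hr. In heart at 6 hr Selp stood at 21.24, Icam1 at 80.42 and Vcam1 at 50.07 CPM. Heart Icam1 stood at 44.7 and 53.96 CPM at 24 and 48 hr, and at 72 hr heart Cd34 and Podxl stood at 78.48 and 130.2 CPM. With 1 library per group these values have no replicate check, and levels that did not exceed the left-out 0 hr library in this way are not listed.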

How the results depend on the processing

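All counts here are members called, and not every move of a count is listed. The shares of all genes called in the alternative fits are given only for the fit without the libraries that stand apart. The counts therefore describe the fits and are not read as results about the members. DESeq2 called 1 in lung at 48 hr, 4 in heart at 72 hr, 1 in heart at 24 against 6 hr, 1, 1 and 2 for the 6 hr interactions (brain minus lung, brain minus heart, lung minus heart) and 4 for brain minus heart at 24 hr. Limma-voom called 5, 3, 4 and 3 in brain at 6, 24, 48 and 72 hr, 4 in lung at 6 hr, and 4 and 0 in heart at 48 and 72 hr. It called 8 between brain and heart and 4 between lung and heart at 0 hr. For brain minus lung and lung minus heart at 24 hr it called 4 and 2. With no filter on low counts the counts were 8 in brain at 72 hr, 1 in lung at 24 and 48 hr, 4 in heart at 72 hr, 1 in heart at 24 against 6 hr, 4 between lung and heart at 0 hr, 2, 1 and 2 for the 6 hr interactions and 4 for brain minus heart at 24 hr. Without the library series covariate 1 was called in lung at 48 hr, in heart at 24 against 6 hr, and for brain minus heart and lung minus heart at 24 hr. With all 98 libraries the counts were 3 in brain at 72 hr, 0 for lung minus heart at 6 hr, and 1 and 0 for brain minus heart and lung minus heart at 24 hr.

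Replicate numbers did not pair the libraries: same-numbered libraries across times correlated with a median r of -0.01 (57 pairs, 17 over 0.1), and libraries across tissues at 0 hr with 0.0 (13 pairs). Tissues of the same mouse by file name had a median r of 0.13 at 0 hr (11 pairs, 6 over 0.1), against 0.03 for other replicate numbers (52 pairs, 14 over 0.1). With the replicate block 0 were called in heart at 72 hr and 4 between lung and heart at 0 hr. Blocking on the mouse read from file names gave 4 for brain minus heart and 1 for lung minus heart at 24 hr.

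The next alternatives were chosen after seeing the data. Without the libraries that stand apart 5 were called in heart at 72 hr (2.91% of all genes) and 3 in heart at 24 against 6 hr (29.8%). For the 6 hr interactions 3, 1 and 3 were called in that fit (8.29%, 3.83% and 14.7%). Without the 48 hr libraries of series 2, 1 was called in lung at 48 hr. In library series 1 alone the counts were 0, 2, 2 and 0 in brain at 6, 24, 48 and 72 hr, 0 in lung at 6 hr, 0, 3, 3 and 1 in heart at the same times, and 2 and 3 between brain and lung and brain and heart at 0 hr. In series 2 alone they were 3 in brain at 48 and 72 hr, 0 in lung at 6 hr, and 2 and 0 in heart at 48 and 72 hr. At 6 hr in series 1 alone, where a group rests on 1 LPS library, the log2 change turned to -3.04 for Sele and -0.32 for Icam1 in brain, -5.46 for Sele in lung, and -0.77 for Madcam1, -0.76 for Selplg and 0.30 for Podxl in heart.

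Leaving out 1 library at a time, 6 to 7, 4 to 7, 6 to 6, 2 to 5 and 0 to 0 were called in brain at 6, 24, 48, 72 and 168 hr, 1 to 4, 0 to 0, 0 to 1, 0 to 1 and 0 to 0 in lung, and 8 to 10, 5 to 6, 4 to 6, 0 to 4 and 0 to 0 in heart. At 24 against 6 hr the ranges were 0 to 0 in brain, 0 to 2 in lung and 0 to 3 in heart. At 0 hr they were 5 to 5, 7 to 8 and 2 to 3 for brain against lung, brain against heart and lung against heart, for the 6 hr interactions 0 to 2, 0 to 1 and 1 to 5, and at 24 hr 2 to 4, 1 to 5 and 0 to 4. Where this left a lone library, it was assumed to vary like the other groups. The lung minus heart difference ran from -1.31 (without lung 6 hr replicate 3) to 0.97 for Cd34 at 6 hr and from -1.18 to 1.39 (without lung 0 hr replicate 4) for Icam2 at 24 hr.

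Of the changes of single members, 265 kept their direction and call with RLE size factors and 2 were newly called, against 254 and 13 with DESeq2. With limma-voom 248 kept both, 5 were newly called and 14 lost their call, and with the replicate block the numbers were 251, 6 and 10. The cause of these differences was not tested. The limits are the depth of the lung libraries at 6 hr, 2 lung libraries at 24 hr, and 6 hr libraries that are nearly all of 1 library series. Library series 4 has no 0 hr or 6 hr library but holds 2 of 4 libraries of brain and heart at 24 hr. It also holds 2 of 4 libraries of each tissue at 168 hr, where series 2 has none. Changes at these times against 0 hr therefore depend on how the series covariate was fitted.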

Other observations

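Genes that mark veins and venules, where leukocytes leave the blood, moved in both directions at 6 hr. Of 7 such genes, Selp among them, 3 rose and 2 fell in brain, 2 rose and 1 fell in lung, and 3 rose and 2 fell in heart (6 tested), beside 6.44%, 4.83% and 42.8% of all genes called there. Besides Selp and Ackr1, the glycoprotein gene Lrg1 rose in brain (2.22 ± 0.61 on the log2 scale, SE, adjusted p = 0.0265) and heart (2.42 ± 0.51, adjusted p = 0.000978), while its lung change of 0.27 ± 0.68 did not pass the test. Ephb4, a receptor of venous endothelium, fell by 1.15 ± 0.22 in brain, 2.63 ± 0.78 in lung and 1.04 ± 0.27 in heart (adjusted p = 0.0017, 0.0454 and 0.00452). Nr2f2, a transcription factor of venous identity, did not pass the test in any of the 3 tissues (-0.42, -0.32 and -0.08). Of 10 monocyte and macrophage markers, 0 passed in brain (edgeR), 1 rose in lung, and 1 rose and 1 fell in heart.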
